A study of Rattus norvegicus with 21 samples.

Results

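DNA methylation was compared between the dorsal striatum of dopamine-denervated rats and that of unlesioned rats. Single CpGs and tiles of 250 bp were used, in the part of the genome that reads covered. The comparison used every library of the series, each put in its group by its title: 15 titled as lesioned and 6 titled as unlesioned, 21 of 21 in all. The animals were wild-type Sprague Dawley rats, given in the labels as 120 days old. Per the labels' protocol, lesioned rats received 6-hydroxydopamine (6-OHDA) in the left medial forebrain bundle, aimed at a loss of at least 90% of axons that stain for tyrosine hydroxylase. Recovery lasted 3 weeks. Of the lesioned animals, 8 had saline and 7 had L-DOPA at 6 mg/kg daily for 7 days, with tissue taken 3 h after the last dose. The 6 unlesioned libraries are labelled as saline-treated. No unlesioned L-DOPA group was analysed here, so the pooled lesioned group mixes lesion alone with lesion plus drug. Whether the unlesioned tissue came from the other side of lesioned rats, from sham-operated rats or from untouched rats is not stated in the labels used here. The labels number the samples and do not name the animals, so the p-values reflect spread between samples that may in part be technical.

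The striatum receives dense dopamine input from the midbrain, and 6-OHDA is taken up by catecholamine neurons and destroys them. Injected in the medial forebrain bundle, through which those axons run, it is the common rat model of Parkinson's disease. L-DOPA, the precursor of dopamine, then restores movement and with repeated dosing brings on involuntary movements called dyskinesia. DNA methylation is the addition of a methyl group to cytosine, in mammals mostly at CpG, where a C is followed by a G. It is usually high over most of the genome and low over CpG-dense stretches such as many promoters. Bisulfite turns unmethylated cytosine into a base read as T, and the share of reads with C was taken as the methylation level. Neurons carry much 5-hydroxymethylcytosine, which bisulfite does not separate from 5-methylcytosine, so the levels are the sum of both forms. The tissue was bulk striatum, in which a change in the mix of cell types and a change of methylation within cells cannot be told apart. The files give positions in the rat build rn5, for which no annotation or sequence was used here, so tiles and CpGs are named by position, without their gene context or a check of cell-type genes.

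A tile entered the test when at least 5 libraries of each of the 3 groups had 2 or more of its CpGs with at least 10 reads each. This left 180940 tested tiles of 296850 seen with 2 CpGs in any library, and 139021 of them were measured in all 21 libraries. Single CpGs were tested at 765193 of the 1594373 positions listed in any library. Positions not listed could not be assessed, so the results hold for the covered part of the genome only. Total coverage over cytosines was 5.96e+07 to 1.64e+08 reads per library, and the median coverage per cytosine was 37 to 70 reads. In 3 libraries reads were concentrated in CpG-dense tiles: the ratio of reads per tile of 15 or more CpGs to reads per tile of 2 or 3 CpGs was 30.2 to 33.6, against 13.7 to 24.7 in the other 18. These were lesioned L-DOPA replicates 3 and 7 and unlesioned replicate 1, and they are called the concentrated libraries here. Library numbers form 2 runs, called series 1 and series 2. Series 1 holds 9 lesioned libraries (saline replicates 1 to 6, L-DOPA replicates 1 to 3), and series 2 holds the other 12, all 6 unlesioned ones among them. The labels do not say what separates these runs. Values within series 2, where 6 lesioned and 6 unlesioned libraries can be compared, therefore stand beside the pooled ones.

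Mean methylation over the tiles common to all libraries was nearly the same in the lesioned and the unlesioned striatum. It was 46.3% ± 1.64 (SD, n = 15) in the lesioned libraries and 46.9% ± 2.07 (SD, n = 6) in the unlesioned ones. The difference of -0.527 percentage points (SE 0.944) lay within the spread between libraries (exact two-sided permutation test, p = 0.545, 54264 arrangements). Within series 2 the difference was -0.566 points (exact permutation p = 0.539). The 3 concentrated libraries had the 3 lowest means, 42.5% to 43.1%, while the other 18 lay between 44.8% and 48.5%. Without those 3 the difference was -0.730 points (exact permutation p = 0.121, 13 against 5 libraries). Leaving out unlesioned replicate 1 alone gave -1.29 points (exact permutation p = 0.1000). Leaving out L-DOPA replicate 3 or 7 or unlesioned replicate 3, 5 or 6, each alone, brought it to between -0.285 and -0.196 points. The lesioned saline libraries averaged 46.7% ± 0.910 (SD, n = 8) and the L-DOPA libraries 46.0% ± 2.24 (SD, n = 7).

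**Figure D1:**
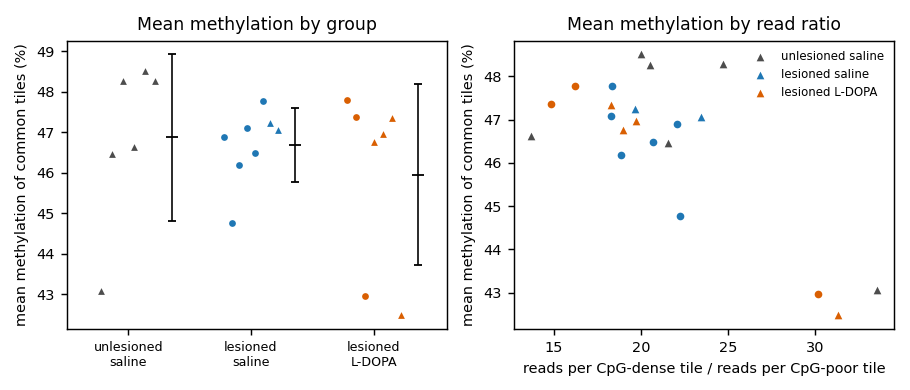
Mean methylation (%) over the 139021 common tiles, 1 point per library, by group on the left (bars: mean ± SD) and against the read ratio between CpG-dense and CpG-poor tiles on the right. Circles are series 1 and triangles series 2. The groups overlap over most of their range, and the 3 libraries with a read ratio over 25 sit lowest, at 42.5% to 43.1%.

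The small deficit ran through every class of tile and every chromosome, and in no class did it exceed the spread between libraries. Tiles were grouped by pooled methylation and by CpG number, with the X chromosome as a class of its own. In all 8 classes the lesioned mean was the lower one, and the exact permutation p adjusted over the 8 was 0.723 in each. The widest gap was in tiles of 20% to 80% methylation, at 52.7% ± 4.10 (SD, n = 15) in lesioned and 54.1% ± 5.03 (SD, n = 6) in unlesioned libraries. In tiles under 20% the means were 4.19% ± 0.288 and 4.35% ± 0.378, and in tiles over 80% they were 90.3% ± 1.09 and 90.5% ± 1.36. In the CpG-densest tiles, with 15 or more CpGs, they were 3.52% ± 0.150 and 3.56% ± 0.177. By chromosome the difference ranged from -0.627 points on chromosome 13 to -0.194 on X. The classes and chromosomes come from the same libraries, so their shared sign is not independent evidence of direction.

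No tile passed the test of lesioned against unlesioned libraries at an adjusted p under 0.05, that is, 0 of 180940 (0%). The test was a quasi-binomial model of methylated and unmethylated reads with its dispersion moderated as in limma, adjusted by the Benjamini-Hochberg method. The smallest adjusted p was 0.316. At an unadjusted p under 0.05 there were 9376 tiles (5.18%), of which 6934 were lower in the lesioned libraries (3.83% of those tested) and 2442 higher (1.35%). limma on log2 odds also called 0 tiles, with 8168 at an unadjusted p under 0.05. Over all tested tiles 56.2% were lower in the lesioned libraries, against 74.0% among those with an unadjusted p under 0.05. That last share ranged from 61.3% to 86.9% when each library was left out in turn. Its highest value was without unlesioned replicate 1, a concentrated library, and its lowest without unlesioned replicate 3.

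Tiles of intermediate methylation held more of the low p-values than their number alone gives. Of the 9376 tiles, 3587 lay between 20% and 80% methylation (38.3%), a class that holds 31.3% of the tested tiles. In that class 6.33% of tiles had an unadjusted p under 0.05, with 3119 lower and 468 higher. The corresponding share was 5.08% under 20% methylation and 4.30% over 80%. Differences between group means were mostly small: their median was -0.177 points, and 95% lay between -8.08 and 5.43 points. The median standard error of a difference was 2.06 points and the median dispersion 3.32, where 1 stands for binomial error of independent counts. A read that covers several CpGs of a tile is counted at each, which can raise this value. At single CpGs the median dispersion was 2.20. The part of such repeated counts in 3.32 was not tested.

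The 2 runs of library numbers were also compared, among lesioned libraries only. Series 1 had 6 saline and 3 L-DOPA libraries there and series 2 had 2 and 4, so this comparison is mixed with treatment. Series 1 against series 2 (9 against 6 lesioned libraries) called 0 tiles and had 7486 (4.14%) at an unadjusted p under 0.05. Lesioned L-DOPA against lesioned saline called 0 and had 6934 (3.83%). At single CpGs the series comparison had 41681 (5.45%), and the lesioned against unlesioned comparison 41656 (5.44%). The unadjusted share at CpGs was thus as large between the library series as between lesioned and unlesioned striatum. The group sizes of these comparisons differ, and the difference between their shares was not tested.

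The tile with the smallest p was a highly methylated one on chromosome 5, where every lesioned library was below every unlesioned one. This tile, at chr5:76371501-76371750 (rn5, 4 CpGs), had 64.1% as its lowest, 85.2% as its median and 90.9% as its highest methylation in the 15 lesioned libraries. In the 6 unlesioned libraries these were 92.8%, 95.3% and 99.3%. The means were 83.7% ± 7.13 (SD, n = 15) and 95.4% ± 2.19 (SD, n = 6), -11.7 points apart (SE 2.05), with an adjusted p of 0.316 in the quasi-binomial model. The gap was present in saline-treated animals, at 86.4% ± 2.76 (SD, n = 8), and the L-DOPA libraries had 80.6% ± 9.42 (SD, n = 7). L-DOPA replicates 3 and 7, the concentrated ones, were lowest at 72.5% and 64.1%, while unlesioned replicate 1, also concentrated, was at 92.8%. Without the 3 concentrated libraries the difference was -9.88 points and the adjusted p 0.00206. Leaving out L-DOPA replicate 7 alone gave -10.3 points and an adjusted p of 0.0292. Within series 2 the difference was -13.1 points with an adjusted p of 0.999, and with each library left out in turn the adjusted p ranged from 0.0292 to 0.851.

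All 4 CpGs of this tile were lower in the lesioned libraries, by 10.1 to 13.5 points. They lie within 44 bases and were listed on 1 strand only, so that a single read of 50 bases can cover all of them and they are not independent measurements. Coverage there was high, with 517 to 2260 reads per library summed over the CpGs. Per CpG it was 5.29 ± 1.47 times (SD, n = 15) the library's median coverage in lesioned and 6.39 ± 2.19 times (SD, n = 6) in unlesioned libraries.

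**Figure D2:**
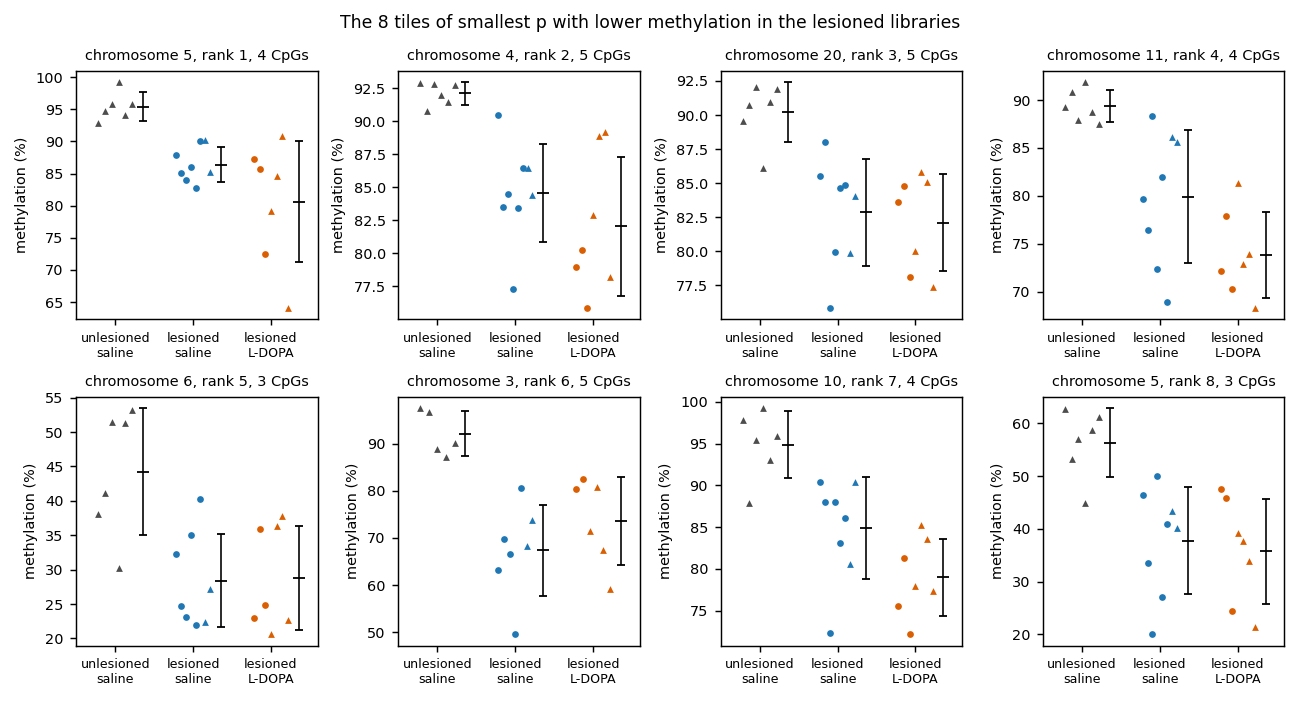
Methylation (%) of the 8 tiles of smallest p among those with the lower mean in lesioned libraries, 1 point per library, with mean ± SD as bars, circles for series 1 and triangles for series 2. Each panel has its own vertical scale, which does not start at 0. In the tiles ranked 1, 2 and 6 no lesioned library reaches the unlesioned range, and none of the 8 passed the adjusted threshold.

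Highly methylated tiles made up most of the others with small p. At chr4:25541001-25541250 (5 CpGs) the lesioned libraries ranged from 75.9% to 90.5% with a median of 83.5%, and the unlesioned ones from 90.8% to 92.9% with a median of 92.4%. The ranges did not overlap, though lesioned saline replicate 1 came within 1 point of the unlesioned range. The difference was -8.70 points (SE 1.22, adjusted p = 0.316). With read concentration as a term in the model this tile passed, with an adjusted p of 0.0477. All 5 tested CpGs of the tile were lower, and coverage was again above the library median, 3.52 ± 0.468 times (SD, n = 15) and 3.65 ± 0.230 times (SD, n = 6).

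At chr20:47574501-47574750 (5 CpGs) means were 82.5% ± 3.64 (SD, n = 15) and 90.2% ± 2.21 (SD, n = 6), and 14 of 15 lesioned libraries lay below the unlesioned range. At chr11:64779251-64779500 (4 CpGs) they were 77.1% ± 6.51 and 89.4% ± 1.70, again with 14 of 15 below the range. Here the saline libraries ranged from 69.0% to 88.3% and the L-DOPA libraries from 68.3% to 81.4%. At chr10:101723751-101724000 (4 CpGs) means were 82.1% ± 6.09 and 94.9% ± 4.05, with 11 of 15 below. The adjusted p of these 3 tiles was 0.344 to 0.426.

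A larger gap on fewer reads was found at chr3:9222001-9222250 (5 CpGs), measured in 13 lesioned and 5 unlesioned libraries. Lesioned libraries ranged from 49.5% to 82.6% and unlesioned ones from 87.2% to 97.5%, with no overlap. Means were 70.3% ± 9.64 (SD, n = 13) and 92.1% ± 4.75 (SD, n = 5), -21.8 points apart (SE 3.41, adjusted p = 0.426). Coverage was 40 to 222 reads per library summed over the CpGs, several of which a single read can cover. Of the 11 named tiles lower in lesioned libraries, this and chr6:62086751-62087000 were the ones in which L-DOPA libraries lay nearer to the unlesioned mean than saline libraries did, at 73.6% ± 9.29 (SD, n = 6) against 67.4% ± 9.65 (SD, n = 7) here.

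The remaining 2 of the 8 tiles were of intermediate methylation. At chr6:62086751-62087000 (3 CpGs) the lesioned libraries had 20.6%, 24.9% and 40.3% as lowest, median and highest, and the unlesioned ones 30.2%, 46.2% and 53.2%. The groups overlapped: unlesioned replicate 4, at 30.2%, was below 6 lesioned libraries. Saline libraries averaged 28.4% ± 6.76 (SD, n = 8) and L-DOPA libraries 28.8% ± 7.55 (SD, n = 7), against 44.2% ± 9.22 (SD, n = 6). At chr5:156504501-156504750 (3 CpGs) the means were 36.8% ± 9.74 (SD, n = 15) and 56.4% ± 6.51 (SD, n = 6), with an adjusted p of 0.426.

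Complete separation of the 15 lesioned from the 6 unlesioned libraries was rare: it was found at 7 lower tiles (0.00504% of the 139021 measured in all libraries) and 2 higher ones (0.00144%), or 9 in all (0.00647%). With 54264 arrangements of the libraries, some of 139021 tiles would be expected to separate by chance. Series 1 and series 2 of the lesioned libraries separated at 34 lower and 14 higher tiles, but groups of 9 and 6 separate more easily. Whether the 9 tiles exceed chance was not tested. Among the tiles that separated lesioned from unlesioned libraries, the 5 lower ones of largest difference included the chromosome 5 and chromosome 4 tiles above. At chr5:134336001-134336250 (2 CpGs) lesioned libraries ranged from 31.8% to 79.9% and unlesioned ones from 80.2% to 86.7%, -16.1 points apart in the mean. L-DOPA replicates 3 and 7 were at 31.8% and 32.4% there, while the other 5 L-DOPA libraries lay between 67.7% and 77.7% and concentrated unlesioned replicate 1 was at 85.5%. Without the concentrated libraries the difference was -10.2 points. At chr3:160855001-160855250 (2 CpGs) the same pair stood at 28.6% and 29.1%, the other 13 lesioned libraries at 58.3% to 69.3%, and unlesioned libraries at 70.3% to 80.6%. At chr9:9454751-9455000 (4 CpGs) lesioned libraries were at 70.8% to 88.9% and unlesioned ones at 89.5% to 93.3%. At chr5:134336001-134336250, chr3:160855001-160855250 and chr9:9454751-9455000 the adjusted p was 0.955 in the quasi-binomial model. The part of read concentration in the methylation values of these tiles was not tested.

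The 8 tiles of smallest p with higher methylation in lesioned libraries had adjusted p-values of 0.785 to 0.955, against 0.316 to 0.426 in the 8 lower ones. The smallest p was at chr12:27626001-27626250 (3 CpGs), where lesioned libraries ranged from 95.8% to 98.7% with a median of 96.9% and unlesioned ones from 93.4% to 95.1% with a median of 94.5%. Every lesioned library was above every unlesioned one, and the spread was narrow in both groups. Means were 97.0% ± 0.811 (SD, n = 15) and 94.3% ± 0.691 (SD, n = 6), 2.63 points apart (SE 0.351, adjusted p = 0.785). Saline and L-DOPA libraries had nearly the same mean, 96.9% ± 0.820 (SD, n = 8) and 97.0% ± 0.866 (SD, n = 7).

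**Figure D3:**
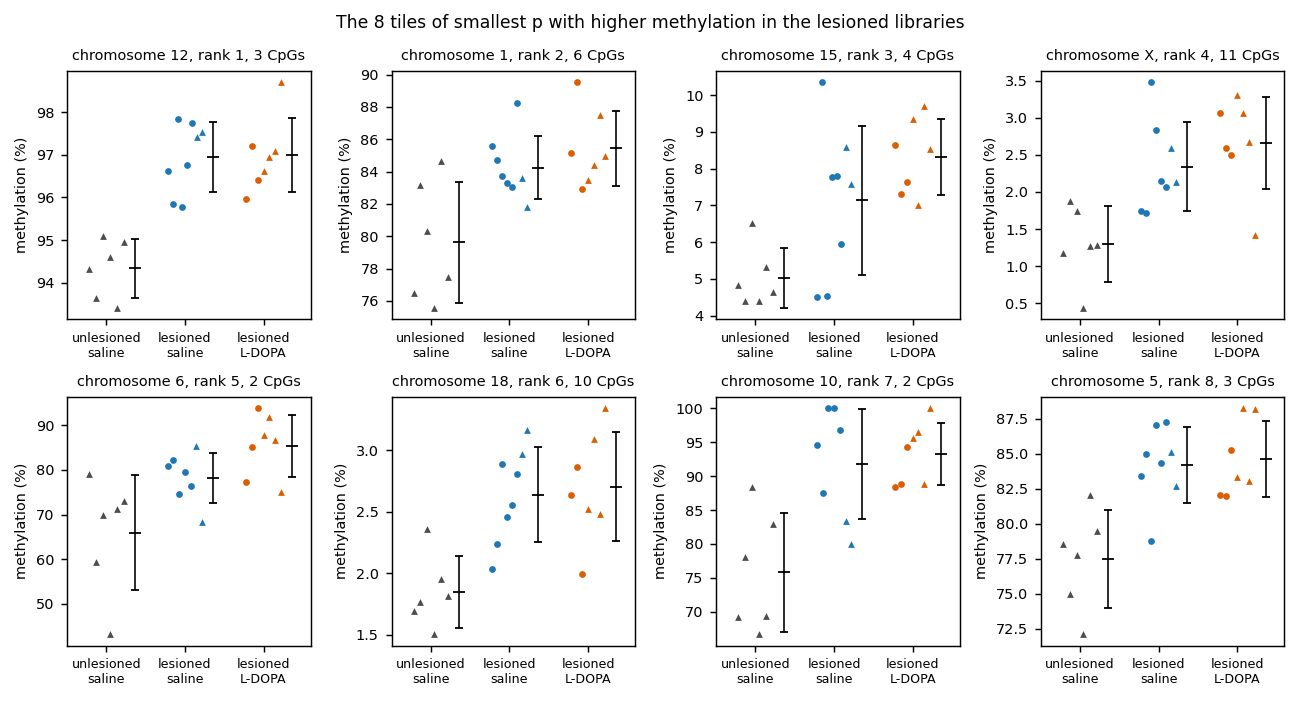
Methylation (%) of the 8 tiles of smallest p among those with the higher mean in lesioned libraries, drawn as for the lower tiles, each panel with its own vertical scale. In the tile ranked 1 the groups do not overlap. The tiles ranked 3, 4 and 6 lie under 11% methylation in every library, and none of the 8 passed the adjusted threshold.

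Other higher tiles were either methylated at more than 60% in both group means or nearly unmethylated. Among the former, chr1:4714251-4714500 (6 CpGs) had 84.8% ± 2.15 (SD, n = 15) against 79.6% ± 3.73 (SD, n = 6), and chr5:83091751-83092000 (3 CpGs) had 84.4% ± 2.62 against 77.5% ± 3.49. At chr6:140710251-140710500 (2 CpGs) the means were 81.7% ± 7.13 (SD, n = 14) and 65.9% ± 12.8 (SD, n = 6), and at chr10:106681001-106681250 (2 CpGs) they were 92.5% ± 6.37 (SD, n = 14) and 75.8% ± 8.77 (SD, n = 6). The latter pair rested on few reads, 32 to 90 and 20 to 48 per library.

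Nearly unmethylated tiles differed by a few points at most. At chr15:36994501-36994750 (4 CpGs) the lesioned mean was 7.69% ± 1.69 (SD, n = 15) and the unlesioned 5.02% ± 0.818 (SD, n = 6). At chrX:115056751-115057000 (11 CpGs) they were 2.49% ± 0.610 and 1.30% ± 0.510, and at chr18:24431751-24432000 (10 CpGs) 2.67% ± 0.399 and 1.85% ± 0.292. The adjusted p was 0.955 at each of the 3. At chr5:162452001-162452250 (4 CpGs) the groups did not overlap, with lesioned libraries at 2.21% to 6.52% and unlesioned ones at 0.941% to 2.20%. Its difference was 2.13 points (quasi-binomial adjusted p = 0.955), and 1.28 within series 2, where the lowest lesioned and highest unlesioned values nearly touched.

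Within a named tile the CpGs went one way. In 19 of the 20 named tiles all tested CpGs had the sign of their tile, and in the other, chr15:36994501-36994750, 3 of 4 did. These CpGs share reads and chose the tile, so this describes the tile and is no further evidence. Of 30 tested tiles within 2000 bp of a named one, 15 had its sign. An unadjusted p under 0.05 was found in 5 of the 30 (5.18% of all tested tiles), all 5 with its sign. Among the 8 directly adjacent tiles 6 shared the sign, and adjacent tiles can share reads with the named one. The exceptions were chr6:140710501-140710750 (-4.11 points, beside 15.8) and chr15:36994251-36994500 (-0.511 points, beside 2.66). Downstream of the chromosome 10 tile, chr10:101724001-101724250 was lower by 11.7 points (81.9% against 93.7%), and upstream of the chromosome 11 tile chr11:64779001-64779250 was lower by 8.52 points (35.6% against 44.1%). Upstream of the chromosome 9 tile, chr9:9454501-9454750 was lower by 11.7 points (68.9% against 80.6%). The tile on chr5:76371501-76371750 had no tested neighbour in that range.

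At single CpGs the quasi-binomial model also called 0 of 765193 (0%), with a smallest adjusted p of 0.0933. At an unadjusted p under 0.05 there were 41656 (5.44%), 28019 lower (3.66%) and 13637 higher (1.78%) in the lesioned libraries. limma on log2 odds called 2, both lower, on chromosome 7 and 23 bases apart, with an adjusted p of 0.0243 each, and 36294 at an unadjusted p under 0.05. At chr7:2876130 the lesioned libraries ranged from 74.0% to 92.3% with a median of 83.9%, and the unlesioned ones from 95.1% to 100% with a median of 97.7%. At chr7:2876107 the lesioned range was 63.6% to 89.9% and the unlesioned range 93.2% to 100%. At both CpGs every lesioned library was below every unlesioned one. Means differed by -13.9 points (SE 1.76) and -19.7 points (SE 2.57), and the quasi-binomial adjusted p was 0.0933 for both. Being 23 bases apart, they can share reads. The tile that holds both (4 CpGs) differed by -8.88 points, with a quasi-binomial adjusted p of 0.955.

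**Figure D4:**
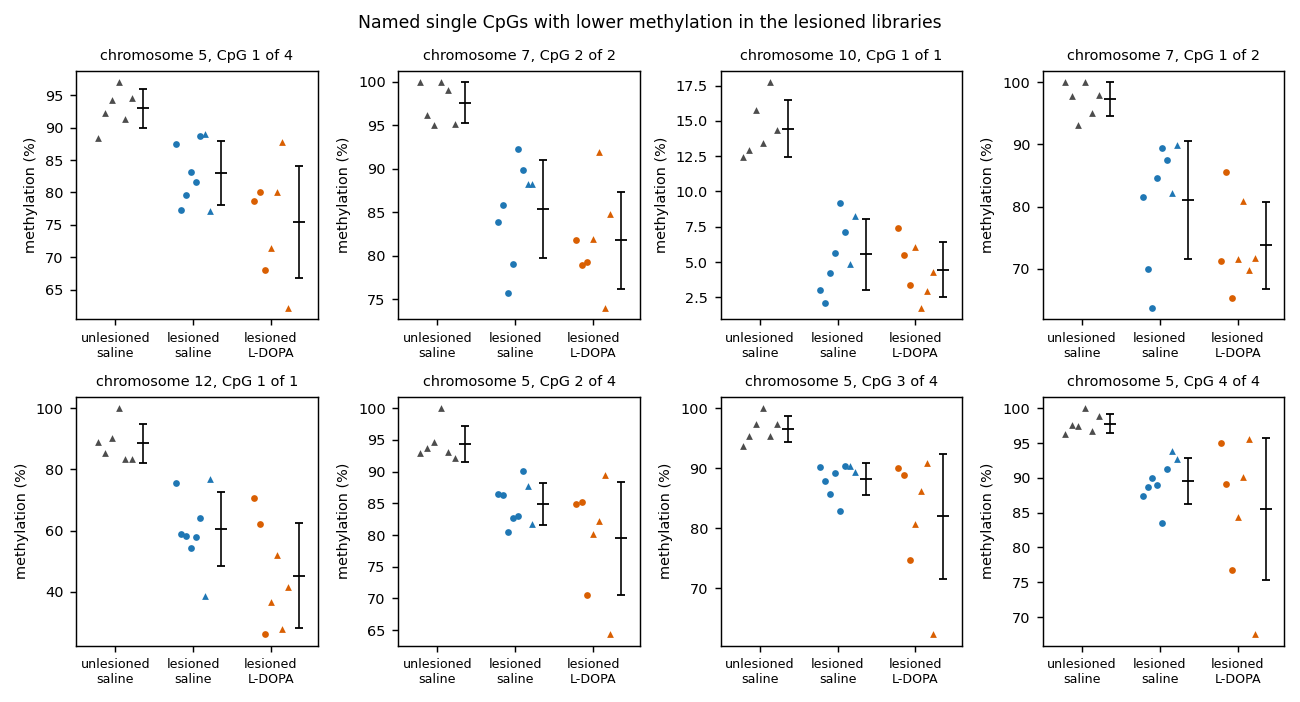
Methylation (%) of the 8 named CpGs with the lower mean in lesioned libraries, 1 point per library, with mean ± SD as bars, circles for series 1 and triangles for series 2. Vertical scales differ and do not start at 0. In 7 of the 8 panels no lesioned library reaches the unlesioned range, and the 4 CpGs on chromosome 5 belong to 1 tile.

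A CpG of low methylation stood among those of smallest p. At chr10:72390500 unlesioned libraries had 12.4% to 17.8% and lesioned ones 1.74% to 9.17%, so that the groups did not overlap. Means were 5.04% ± 2.26 (SD, n = 15) and 14.4% ± 2.01 (SD, n = 6), -9.40 points apart (adjusted p = 0.0933). Saline libraries averaged 5.55% ± 2.50 (SD, n = 8) and L-DOPA libraries 4.46% ± 1.97 (SD, n = 7). The read count behind each value was 31 to 184. Its tile (4 CpGs) differed by -4.38 points, with a quasi-binomial adjusted p of 0.955.

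The largest difference among the named CpGs was at chr12:39242451. Unlesioned libraries had 83.3% to 100% with a median of 87.1%, and lesioned ones 26.1% to 76.9% with a median of 57.9%. The means, 88.5% ± 6.32 (SD, n = 6) and 53.5% ± 16.1 (SD, n = 15), were -35.0 points apart (SE 4.90, adjusted p = 0.0933), on 22 to 111 reads per library. Lesioned saline libraries averaged 60.6% ± 12.2 (SD, n = 8) and L-DOPA libraries 45.3% ± 17.0 (SD, n = 7). The difference was -42.9 points within series 2 and -31.9 points without the concentrated libraries. Over the tile that holds this CpG (11 CpGs) it was -11.6 points, with a quasi-binomial adjusted p of 0.955.

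The 4 CpGs of the chromosome 5 tile, chr5:76371554, 76371573, 76371588 and 76371596, had adjusted p-values of 0.0933, 0.0933, 0.131 and 0.186 in the quasi-binomial model. At the last 3 the groups did not overlap. At chr5:76371554, the one of smallest p, 13 of 15 lesioned libraries lay below the unlesioned range of 88.4% to 97.0%. Among all CpGs measured in every library, the groups did not overlap at 17 lower (0.00295%) and 2 higher (0.000347%) ones, 19 in all (0.0033%). With 54264 arrangements of the libraries, some of the 576212 CpGs would be expected to separate by chance in each direction. Separation at a CpG is thus no evidence of a lesion effect by itself, and whether the 19 exceed chance was not tested. The smaller groups of the series comparison separated at 123 lower and 64 higher CpGs.

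None of the 5 named CpGs with higher methylation in lesioned libraries separated the groups. The largest difference was at chr3:122570384, with 67.6% ± 12.5 (SD, n = 15) in lesioned and 41.8% ± 5.42 (SD, n = 6) in unlesioned libraries. Of the lesioned libraries 14 of 15 were above the unlesioned range there, on 16 to 64 reads. At chr14:80640890 the means were 60.7% ± 5.45 and 47.5% ± 8.21, and at chr3:58415066 they were 69.7% ± 12.2 and 53.3% ± 9.30. At chr19:52866903 they were 93.1% ± 6.47 and 74.9% ± 11.2, and at chr1:15956263 they were 97.4% ± 3.00 and 87.0% ± 5.95. At the latter pair unlesioned replicate 5 was the highest of its group, above the lesioned mean, at 96.4% and 98.4%. Adjusted p-values of the 5 were 0.728 to 0.915.

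Runs of 3 or more neighbouring tiles with an unadjusted p under 0.05 and the same sign numbered 8, of which 6 were lower and 2 higher in the lesioned libraries. The comparison of library series among lesioned libraries gave 5 such runs. The longest, 4 tiles and 16 CpGs at chr18:28150501-28151750, averaged 36.6% ± 9.92 (SD, n = 15) in lesioned and 48.8% ± 9.52 (SD, n = 6) in unlesioned libraries, with ranges of 20.7% to 52.2% and 31.3% to 58.3%. A run of 3 tiles at chr7:126503501-126504250 had 34.3% ± 15.1 and 47.8% ± 11.5. The 2 higher runs were at chr7:117339751-117340500, with 15.2% ± 2.81 against 11.1% ± 2.48, and chr1:195048001-195048750, with 1.92% ± 0.737 against 0.897% ± 0.281. The groups overlapped in all 4 of these runs, and no tile in them had an adjusted p below 0.955.

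Named tiles were displaced the same way in saline-treated and L-DOPA-treated lesioned striatum. Both lesioned groups lay on the same side of the unlesioned mean in 20 of 20 named tiles, and the lesioned libraries of series 2 did so in 20 of 20 as well. These tiles were chosen on the pooled difference and the groups share their 6 controls, so the match is not independent evidence. L-DOPA libraries lay farther from the unlesioned mean than saline libraries in 17 of the 20, namely 9 of the 11 lower and 8 of the 9 higher tiles. Over all tested tiles the L-DOPA mean was below the saline mean in 58.3%. That is a different measure, since in the higher tiles farther means above saline. The share of all tiles in which L-DOPA libraries lay farther was not computed, so the count of 17 has no reference. The L-DOPA means include the concentrated L-DOPA libraries, which were far below the other L-DOPA libraries in some of the lower tiles. The part of read concentration in the count of 17 was not tested. No named tile or CpG passed the test of L-DOPA against saline, with smallest adjusted p-values of 1.000 for tiles and 0.990 for CpGs (quasi-binomial model). At an unadjusted p under 0.05 were 0 of the 20 tiles (3.83% of all tiles tested) and 3 of the 13 CpGs (4.81% of all CpGs tested). These were chr5:76371554 (-7.52 points, unadjusted p = 0.0110), chr7:2876107 (-7.36 points, 0.0145) and chr12:39242451 (-15.2 points, 0.0159), each lower in L-DOPA libraries.

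Over all common tiles the differences of the 2 lesioned groups were nearly unrelated once they shared no control library. Lesioned saline was set against unlesioned replicates 1, 3 and 5, and L-DOPA against replicates 2, 4 and 6. Pearson's r across the 139021 common tiles was 0.0630, and 50.7% of tiles had the same sign. With the control sets exchanged r was 0.132 and the share 52.7%. In tiles of 20% to 80% methylation r was 0.0840 and 0.135. Without the concentrated libraries r was 0.00212 and 0.120, and within series 2, with 2 saline and 4 L-DOPA libraries, -0.0437 and 0.0216. These are descriptions across tiles, which are not independent replicates and share their libraries' depth. Each difference rests on few control libraries, and spread between libraries lowers r. The values therefore cannot tell whether a small shared difference is present.

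**Figure D5:**
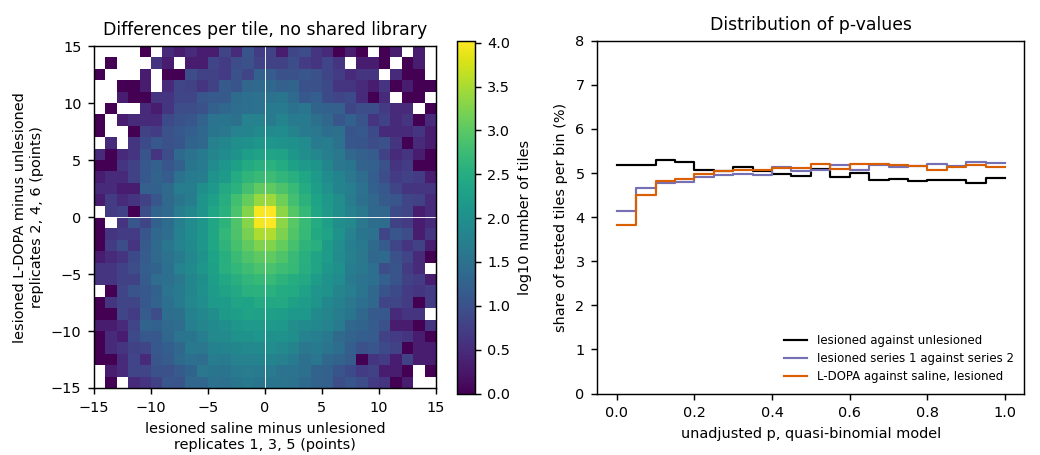
Left: number of common tiles (log10 colour scale) by the difference of lesioned saline libraries from unlesioned replicates 1, 3 and 5 and that of L-DOPA libraries from replicates 2, 4 and 6, in percentage points, between -15 and 15. Right: share of tested tiles per p-value bin of width 0.05 in 3 comparisons. The cloud has little tilt (r = 0.0630), and the lowest bin holds 5.18%, 4.14% and 3.83% of tiles.

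Over the common tiles, lesioned and unlesioned libraries lay about as far apart as libraries of the same group. The root mean square difference over common tiles was 8.26 points between lesioned and unlesioned libraries, 8.08 points among lesioned and 8.57 points among unlesioned ones. The mean squared distance between the groups minus the average within them was -1.09 squared points (exact one-sided permutation test, p = 0.514, 54264 arrangements). Within series 2 it was -2.39 (exact permutation p = 0.569). Without the concentrated libraries it was 1.15 (exact permutation p = 0.153), and without unlesioned replicate 1 alone 4.23 (exact permutation p = 0.0744). Lesioned saline and L-DOPA libraries gave -1.28 (exact permutation p = 0.525). By mean distance, 11 of 15 lesioned libraries were nearer to the other lesioned libraries than to the unlesioned ones, and so were 5 of the 6 unlesioned libraries.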

How the data were processed

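Bisulfite-converted DNA was sequenced as single-end reads of 50 bases, trimmed, mapped to rn5, de-duplicated and summarised per CpG, per the labels' protocols and design text. The tools in the submitters' processing notes are Bismark 0.13.0 and methylKit 0.9.2, with Trim Galore 0.3.7, FastQC 0.10.1 and SAMtools 0.1.19. The deposited files give each cytosine's coverage as a count of reads. The authors' other columns are the percent of reads showing C and showing T, and these with the coverage gave whole methylated counts for 100% of cytosines. Between 36.4% and 58.8% of cytosines had more than 50 reads, more than positional de-duplication of such reads would leave on a strand, so PCR duplicates may remain and counting error would be understated.

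Methylated and unmethylated counts of both strands were summed per CpG and per tile of 250 bp with at least 2 CpGs, and the mitochondrial genome was left out. Features with pooled methylation under 1% or over 99% were not tested. The model had 2 groups, 15 against 6 libraries. Its dispersion was moderated across features as limma's squeezeVar does, with 1 as the lower bound. An F-test compared deviances, with Benjamini-Hochberg adjustment over all features at 0.05. Differences are between unweighted group means, with SE from the libraries' spread. The model was run on simulated counts that gave every tile the median dispersion, with changes placed only in tiles of intermediate methylation. Its power at highly methylated tiles or at tiles of larger dispersion was not tested. Named features are the 8 tiles and 5 CpGs of smallest p per direction, up to 5 non-overlapping tiles of largest difference per direction, and the CpGs of the tile of smallest p. The comparison, rules and lists were chosen with earlier results of these data known. Alternatives varied the test, covariates, filters, tile size and libraries. Python 3.11.15, numpy 2.4.6, scipy 1.17.1, pandas 2.3.3, matplotlib 3.10.9, R 4.3.3 and limma 3.58.1 were used.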

Additional observations from a re-analysis of the deposited data

Results flagged for a closer look

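Single libraries that stood apart from the rest of their group were looked for in 114 sets of values, and 5 were found. Chance marks about 1 set in 20 by this rule, which is 5.7 of 114.

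Lesioned saline replicate 3, the library of lowest total coverage (5.96e+07 reads), had 160179 of the tested tiles measured, against 170988 in the next lowest of its group. In the tile at chr9:9454751-9455000, lesioned saline replicate 2 was at 70.8% and the next lowest saline library at 83.5%. In the tile at chrX:115056751-115057000, L-DOPA replicate 7 was at 1.42% and the next lowest L-DOPA library at 2.49%. At chr5:76371573, unlesioned replicate 4 was at 100% and the next highest unlesioned library at 94.6%. At chr1:15956263, unlesioned replicate 5 was at 98.4% and the next highest at 87.6%.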

How the results depend on the processing

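With read concentration as a term, 8 tiles were called, all lower, and with library series added 1. Without the concentrated libraries 1 was called. The chr5:76371501-76371750 tile was among them each time, with an adjusted p of 0.000275, 0.00916 and 0.00206. The chr4:25541001-25541250 tile was among the 8 (0.0477). Without overdispersion and with at least 5 points, 12695 tiles were called (10080 lower, 2615 higher). Leaving out each library in turn called 0 to 1 tiles and 0 to 3 CpGs, the highest values both without L-DOPA replicate 7. At CpGs limma called 2, the model without the concentrated libraries 6 and the replicate block 2. The separation changed sign without the concentrated libraries (1.15) and ranged from -2.37 to 4.23 with each library left out, and the mean difference from -1.29 to -0.196. Within series 2 the r values were -0.0437 and 0.0216, and runs numbered 4. Tiles at an unadjusted p under 0.05 made up 9.79% with the concentration term (84.2% of them lower) and 8.17% without unlesioned replicate 1. Series 2 alone gave 4.13%. Causes beyond fewer libraries or features were not tested. The median SE per tile was 2.06 points, and the median dispersion was 3.32, in which the part of reads counted at several CpGs was not tested. Other settings called 0 tiles: 3 groups, limma, series term, block, adjusted p under 0.01, series 2 alone with or without concentrated libraries, all 21 libraries, no range filter, 20 reads, scaled coverage, highest coverage removed and 1000 bp tiles. Of 848 differences of named features recomputed from other libraries or reads 0 reversed sign and 9 newly passed the threshold. Many of the 848 left out a single library, and the features were chosen on these data for their differences. In the 8 named tiles and 7 named CpGs whose groups do not overlap, leaving libraries out cannot reverse the sign. The lack of reversals is therefore no independent evidence. Another 249 values changed only the model or the features tested, which leaves the group means as they are and so cannot reverse. Of these 25 newly passed, 20 of them without overdispersion.

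No pairing by replicate number was seen, though these values cannot exclude one. Across groups, same-numbered libraries had correlations of -0.456 to 0.298 in their deviations (19 pairs, median 0.0359). Pairs of other numbers had -0.421 to 0.545 (127 pairs, median 0.00671). The highest value, 0.545, was between L-DOPA replicate 3 and unlesioned replicate 1, both concentrated libraries. Only 2 of 21 libraries correlated best with their own number. With the replicate block 0 tiles were called, with 8692 at an unadjusted p under 0.05. The 2 CpGs called with the block, chr3:14351011 and chr3:15864762, differed by -4.02 and -6.84 points, with SDs above the means in both groups.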
